A study of Mus musculus with 4 samples.

Results

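The syndecans and glypicans are the membrane-bound families of heparan sulfate proteoglycans, and all 10 mouse genes, Sdc1 to Sdc4 and Gpc1 to Gpc6, were found by symbol in a table of 25965 genes. The table holds 4 libraries of polyadenylated RNA from aortic vascular smooth muscle cells (VSMCs), the muscle of the vessel wall, kept in culture. Wild type male mice on a C57Bl/6 background, 8 to 14 weeks old, gave the aortic media from which the cells were released by enzymes, and the cells were then grown in serum for 3 to 5 passages. No treatment, second genotype or uncultured tissue is among these samples, so all 4 libraries form 1 group and what can be measured is how high each gene is, how genes compare inside a library, and how far the libraries vary. The labels do not say whether the libraries came from separate animals or cultures, so the spread given here, and any p-value, measures only the difference between these libraries, which may be technical.

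Heparan sulfate is a long sulfated sugar chain built in the Golgi onto a core protein. Syndecans carry the chains on a single-pass transmembrane protein whose short cytoplasmic tail binds kinases and PDZ-domain adaptors, whereas glypicans are tied to the outer membrane leaflet by a glycosylphosphatidylinositol (GPI) anchor. Both families hold growth factors, chemokines and matrix proteins at the cell surface, and in arteries the chains are known for binding fibroblast growth factors and for taking up lipoproteins. Sdc4 is found in focal adhesions, where its tail binds protein kinase C alpha.

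The libraries held 40342561 to 56793195 reads on genes. Smooth muscle markers were present, with 5 of 5 genes (Acta2, Tagln, Smtn, Cnn1, Myh11) detected, and their summed level was 7628, 3501, 11044 and 15542 scaled reads in libraries 1 to 4. Of the markers of cells known for single members, none of 5 plasma cell and B cell genes and none of 5 epithelial genes was detected in 4 of 4 libraries, both cell types in which Sdc1 is abundant, and none of 4 neuronal genes, a cell type known for Sdc3 and Gpc2. Of the epithelial genes, Cdh1 had 10, 24, 15 and 16 reads, Krt5 0, 12, 0 and 0, and Epcam 1, 9, 0 and 0. Of the plasma cell and B cell genes, Ptprc had 13, 27, 0 and 12. All these log2 values were below 0, and the other genes of both lists had no reads. The neuronal marker Syp had 34, 72, 50 and 17 reads, a log2 value above 0 in libraries 1 to 3. Of the other lists, 3 of 4 endothelial, 3 of 4 mesothelial, 4 of 4 adventitial fibroblast and 0 of 3 Schwann cell genes were detected. Fibroblast markers differed between the libraries, with summed levels of 673, 567, 70.9 and 53.8 scaled reads, and their part in the results was not tested. The typical gene also differed: median-ratio size factors moved the libraries by -0.32, -0.10, 0.30 and 0.12 log2 units relative to the authors' scaling.

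Levels are log2 scaled reads as deposited, where the scaled value is a read count times a constant of its library, not divided by gene length. A gene counted as detected when this value was at least 0 in 4 of 4 libraries, which took 22 to 30 reads. By this rule 8 of the 10 members were detected, against 47.4% of all genes. Gpc3 reached the threshold in 3 libraries, and Gpc5 had no read in any.

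Promoters are shown for the member with the most transcripts (Sdc4), for the neighbours Gpc4 and Gpc3 on chromosome X, of which one was steadily detected and the other was not, and for Gpc5, which had no reads. The sequences are from RefSeq on GRCm38.p6, which listed 7 of the 10 members, and run from 250 bases before to 50 bases after the gene start, 5′ to 3′ on the strand of the gene. Capitals mark the GC box (GGGCGG or its complement CCGCCC) and TATAA or its complement TTATA. A GC box cannot overlap either of these, whereas TATAA and TTATA can overlap each other. The RefSeq start lies 699 bases downstream of the start of the deposited Sdc4 row and 329 bases downstream of that of Gpc4, so these windows lie inside the rows, while for Gpc3 and Gpc5 the starts differ by -24 and 0 bases.
Sdc4, chr2:164443139-164443438, minus strand: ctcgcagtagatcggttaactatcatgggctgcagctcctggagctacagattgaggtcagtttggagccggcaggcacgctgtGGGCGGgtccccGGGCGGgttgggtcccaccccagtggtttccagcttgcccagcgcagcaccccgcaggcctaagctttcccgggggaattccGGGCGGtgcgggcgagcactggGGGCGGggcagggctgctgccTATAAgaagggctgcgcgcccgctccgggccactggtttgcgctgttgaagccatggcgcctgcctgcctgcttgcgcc
Gpc4, chrX:52164874-52165173, minus strand: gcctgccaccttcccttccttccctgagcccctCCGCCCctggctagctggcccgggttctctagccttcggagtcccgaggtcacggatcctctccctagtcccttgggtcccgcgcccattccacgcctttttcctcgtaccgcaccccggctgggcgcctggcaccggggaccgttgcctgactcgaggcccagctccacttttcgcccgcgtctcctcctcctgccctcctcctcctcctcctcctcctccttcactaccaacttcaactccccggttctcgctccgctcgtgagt
Gpc3, chrX:52613925-52614224, minus strand: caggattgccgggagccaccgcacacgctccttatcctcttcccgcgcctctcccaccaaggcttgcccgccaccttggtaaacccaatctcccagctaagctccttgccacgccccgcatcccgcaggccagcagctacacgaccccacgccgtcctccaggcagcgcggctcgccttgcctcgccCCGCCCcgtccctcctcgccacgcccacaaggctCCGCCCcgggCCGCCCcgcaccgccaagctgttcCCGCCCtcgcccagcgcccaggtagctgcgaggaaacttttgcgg
Gpc5, chr14:115091965-115092264, plus strand: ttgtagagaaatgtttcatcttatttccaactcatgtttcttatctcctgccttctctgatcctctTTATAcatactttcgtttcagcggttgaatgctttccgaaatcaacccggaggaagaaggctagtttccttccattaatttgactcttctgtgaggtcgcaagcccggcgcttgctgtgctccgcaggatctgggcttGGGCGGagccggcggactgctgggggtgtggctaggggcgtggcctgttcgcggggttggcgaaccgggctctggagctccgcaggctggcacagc
The Sdc4 sequence held 4 GC boxes and a TATAA at position -29 from the gene start. Gpc3 held 4 GC boxes, Gpc4 held 1, and Gpc5 held 1 GC box with a TTATA on the given strand. Of 32851 promoters of this length, 35.7% held a GC box and 24.9% a TATAA or TTATA on either strand. GC content was 67.7% for Sdc4, 66.7% for Gpc4, 70.7% for Gpc3 and 54.7% for Gpc5, against a median of 52.7%. A match describes these letters and says nothing of a bound factor.

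Sdc4 led both families by a wide margin. Its level was 10.55, 11.22, 12.32 and 12.23 in libraries 1 to 4, from 43610, 68922, 112504 and 141567 reads (chromosome 2, 164424247 to 164443887, GRCm38, minus strand). Libraries 3 and 4 were the high ones, and the mean was 11.58 ± 0.85 (SD, n = 4). These reads made up 0.0776%, 0.124%, 0.279% and 0.249% of all reads on genes. Divided by exon length, which allows levels to be compared between genes, Sdc4 stood at 10.23 ± 0.85 log2 scaled reads per kb and ranked 63 among the 11045 detected genes that had a length.

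The other 3 syndecans lay close together per length. Sdc3, known from nerve tissue, had levels of 9.43, 9.14, 8.76 and 8.96 (mean 9.07 ± 0.28, chromosome 4, 130792537 to 130826319), with library 1 highest. Sdc1, the syndecan of epithelia and plasma cells, had 8.55, 8.80, 7.92 and 8.18 (mean 8.36 ± 0.39, chromosome 12, 8771323 to 8793715), higher in libraries 1 and 2 than in 3 and 4. Sdc2, the syndecan most associated with mesenchymal cells, had 8.34, 7.52, 7.68 and 7.77 (mean 7.83 ± 0.36, chromosome 15, 32920723 to 33034730), and library 1 stood above the other 3. Per kb these were 6.49 ± 0.28 for Sdc3, 6.43 ± 0.39 for Sdc1 and 6.01 ± 0.36 for Sdc2. Sdc1 had 10870, 12917, 5343 and 8517 reads, and Sdc3 had 20070, 16314, 9550 and 14626. The listed mesothelial marker Krt19, a keratin also made by epithelia, had 473, 1209, 834 and 1438 reads. The other mesothelial markers had other orders of libraries: Upk3b had 1498, 458, 1024 and 731 reads, Msln 61, 110, 28 and 31, and Lrrn4 52, 33, 0 and 0. The part of these markers in the Sdc1 level was not tested. In bulk RNA such as this, fewer cells carrying a transcript and less of it per cell cannot be told apart.

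**Figure D1:**
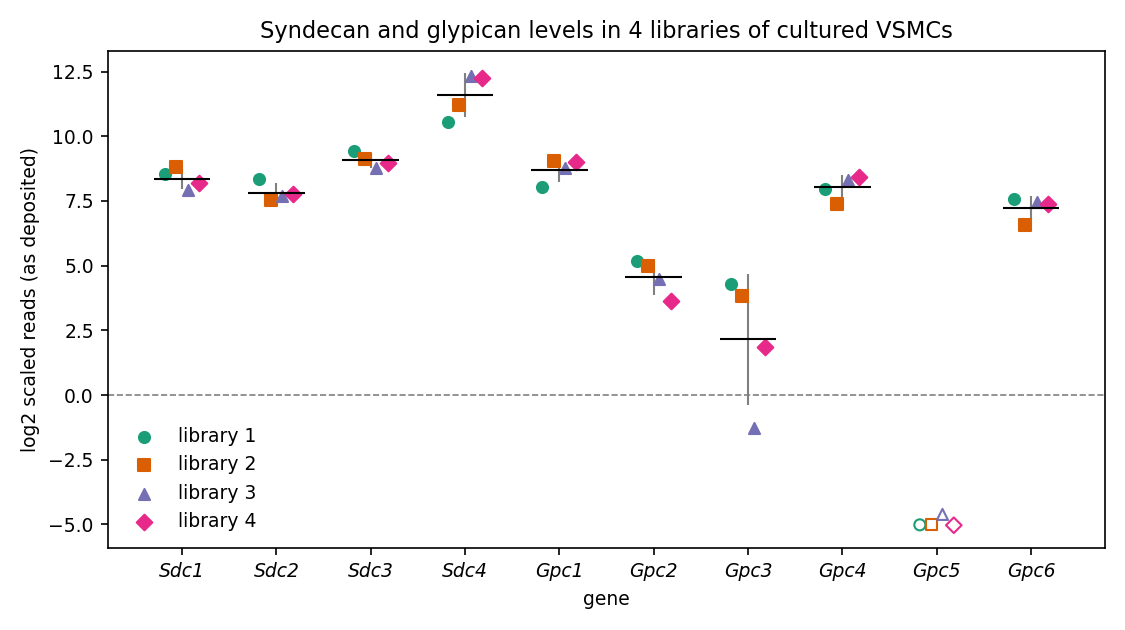
Level of each gene (log2 scaled reads, not divided by length) in the 4 libraries, with the mean as a black line, the SD as a grey bar and the detection threshold of 0 as a dashed line. Sdc4 lies highest in every library, Gpc3 spans from -1.29 to 4.27, and the open symbols of Gpc5 mark the floor given to genes without reads, which differs by library with the value of 1 read.

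Among the glypicans, Gpc4 and Gpc1 had the most transcripts per length. Gpc4 had levels of 7.98, 7.37, 8.32 and 8.42 (mean 8.02 ± 0.47, chromosome X, 52053021 to 52165252), with libraries 3 and 4 above 1 and 2. Gpc1, the glypican with the widest expression in adult tissues, had 8.04, 9.05, 8.77 and 8.99 (mean 8.71 ± 0.46, chromosome 1, 92831645 to 92860198), with library 1 alone low. Per kb, Gpc4 stood at 6.62 ± 0.47 and Gpc1 at 6.35 ± 0.46. Gpc6, a close relative of Gpc4, had 7.56, 6.57, 7.48 and 7.38 (mean 7.25 ± 0.46, chromosome 14, 116925297 to 117979529), low only in library 2, and 4.56 ± 0.46 per kb.

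Gpc2, a glypican of the developing nervous system, was the lowest detected member. It had 1054, 919, 498 and 362 reads, or levels of 5.18, 4.99, 4.50 and 3.62 (mean 4.57 ± 0.70). The deposited row (chromosome 5, 138264952 to 138280005) is wider than the Gpc2 gene of GENCODE M21 (138273655 to 138280005) and takes in 7889 bases of Gal3st4, a sulfotransferase gene on the same strand, as does the read-through model Gm43720. Gal3st4 had 448, 345, 218 and 180 reads, equal to 42.5%, 37.5%, 43.8% and 49.7% of the Gpc2 reads, and whether these were counted in both rows is not given in the sources used here. With them taken off, an alternative chosen after seeing the data, Gpc2 had 606, 574, 280 and 182 reads and a mean of 3.75 ± 0.81. A further 1710 bases are shared with 6330418K02Rik on the opposite strand (327, 381, 215 and 187 reads), and the strand setting of the counting is not given either.

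Gpc3, a glypican of embryonic mesoderm that restrains growth, was the most uneven member. Its reads were 562, 409, 9 and 106, which are levels of 4.27, 3.82, -1.29 and 1.85 (mean 2.16 ± 2.53, chromosome X, 52272426 to 52613950). Libraries 1 and 2 were high and library 3 nearly empty, and the highest was 47.2 times the lowest. Without library 3, whose 9 reads have an exact Poisson 95% interval of 4.12 to 17.1, that ratio was 5.36. Counting error alone would give an SD of 0.25 log2 units over the 4 libraries. The neighbouring Gpc4, 107173 bases away and on the same strand, did not share this order, being lowest in library 2 and highest in library 4.

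Adventitial fibroblast markers were likewise higher in both of libraries 1 and 2 than in both of 3 and 4. As deposited, 51.8% of detected genes had this order, and 27% had it with median-ratio size factors. Dpt had levels of 7.15, 7.02, 2.32 and 1.92, Serpinf1 8.53, 8.28, 4.86 and 4.18, Pdgfra 7.17, 6.77, 4.92 and 4.83, and Pi16 4.03, 4.01, 2.72 and 1.75. All 4 markers were above the threshold in every library, and their order differed from that of Gpc3 in that library 4 was lowest for each, while Gpc3 was lowest in library 3. Smooth muscle markers shared the split of Sdc4, which was read from these values and is not a label of the samples. Of these markers, 5 of 5 were higher in both of libraries 3 and 4 than in both of 1 and 2. The split held as deposited and with median-ratio size factors, and was found in 11.4% and 28.7% of detected genes. Acta2 was at 12.04, 10.76, 12.77 and 13.16 and Myh11 at 7.12, 5.33, 8.08 and 9.24, both lowest in library 2, where Sdc4 was lowest in library 1. Their part in the Sdc4 levels was not tested.

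**Figure D2:**
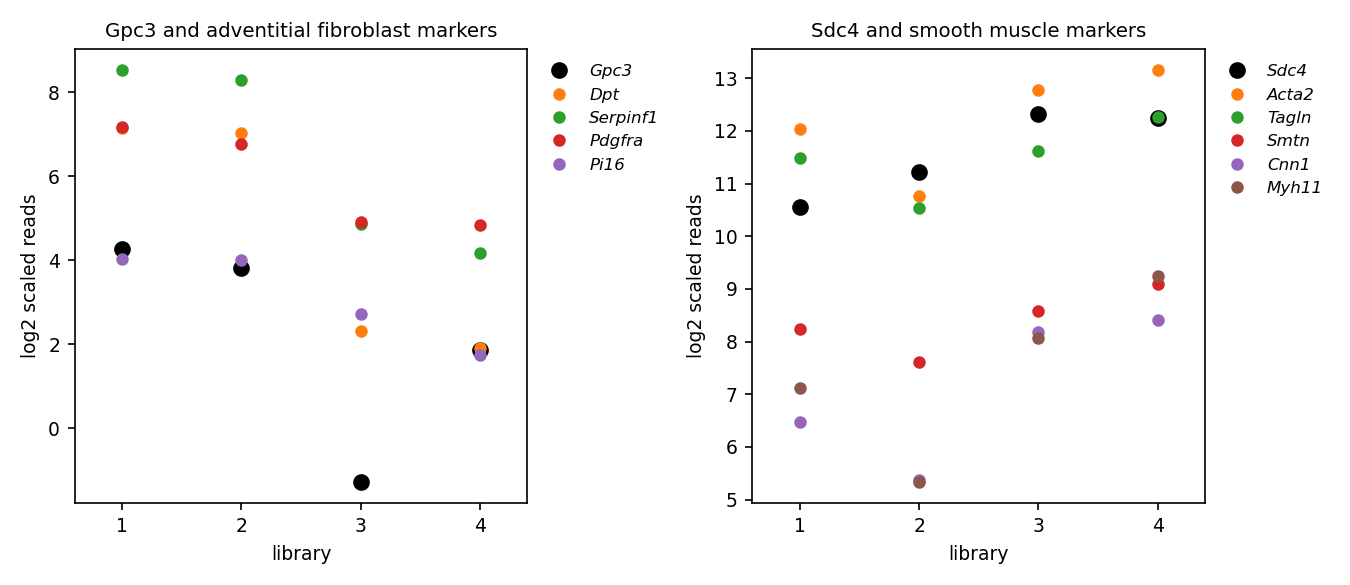
Levels (log2 scaled reads) by library of Gpc3 with 4 adventitial fibroblast markers on the left, and of Sdc4 with 5 smooth muscle markers on the right, the member in black. Gpc3 and the fibroblast markers are higher in libraries 1 and 2, and Sdc4 and the smooth muscle markers are higher in libraries 3 and 4, with the markers lowest in library 2 and Sdc4 in library 1.

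Gpc5, a glypican of brain and kidney, had 0 reads in each library (chromosome 14, 115092215 to 116525179). A count of 0 allows up to 3 reads per library (a one-sided 95% limit, whereas the interval of Gpc3 is two-sided), and intervals and floors cover counting error only, since the reads carry no molecular identifiers and may repeat a molecule. Of all genes, 28.7% had no read in any library. Its neighbour Gpc6, 400117 bases away on the same strand, had 5487, 2747, 3917 and 4891 reads.

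Ordered by mean level per kb, the members ran Sdc4, Gpc4, Sdc3, Sdc1, Gpc1, Sdc2, Gpc6, Gpc2, Gpc3 and Gpc5. Sdc4 exceeded the next gene, Gpc4, by 3.61 ± 0.66 log2 units, in 4 of 4 libraries. The neighbours from Gpc4 to Sdc2 could not be told apart by their spread: the steps were 0.13 ± 0.66, 0.06 ± 0.25, 0.09 ± 0.63 and 0.34 ± 0.81, and each changed sign between libraries, also with the longest transcript as length. Below them, Sdc2 exceeded Gpc6 by 1.44 ± 0.34 (0.81 with the longest transcript as length) and Gpc6 exceeded Gpc2 by 2.08 ± 0.92 (2.71 with that length), both in 4 of 4 libraries. Gpc2 stood above Gpc3 by mean in each setting given here, but in single libraries the sign depended on the Gpc2 row and length used. Gpc2 minus Gpc3 was 0.24, 0.50, 5.12 and 1.10 (mean 1.74 ± 2.28), less than the spread, and turned negative in libraries 1 and 2 both with the Gal3st4 reads taken off (-0.56 and -0.18) and with the exons of the read-through model added to the Gpc2 length (-0.72 and -0.46). With the longest transcript as length it was -0.03 in library 1. The mean of Gpc2 minus Gpc3 was 0.92 with the Gal3st4 reads taken off and 0.78 with the read-through exons. It was 1.47 with the longest transcript, and each of these means was less than its SD. The step from Gpc6 to Gpc2 was 2.91 and 3.04 under these Gpc2 alternatives, which were chosen after seeing the data.

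As shares of the summed level per kb of all 10 genes, Sdc4 took 54.3%, 67.2%, 82.3% and 79.8% in libraries 1 to 4 (mean 70.9 ± 12.9). The next shares were those of Sdc3 (5.97% ± 3.53), Gpc4 (5.92% ± 1.95), Sdc1 (5.82% ± 3.38), Gpc1 (4.93% ± 1.72) and Sdc2 (4.29% ± 2.83), which overlap. Without division by length, 3 shares moved by more than their SD, to 11.3% for Sdc3, 8.24% for Gpc1 and 3.08% for Gpc6. Syndecans together made up 82.4%, 86.1%, 90.2% and 89.1%. Within the glypicans, Gpc4 had 49.8%, 32.4%, 50.6% and 50.1% and Gpc1 26.7%, 53.3%, 35.4% and 38.2%, so that Gpc1 led only in library 2.

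**Figure D3:**
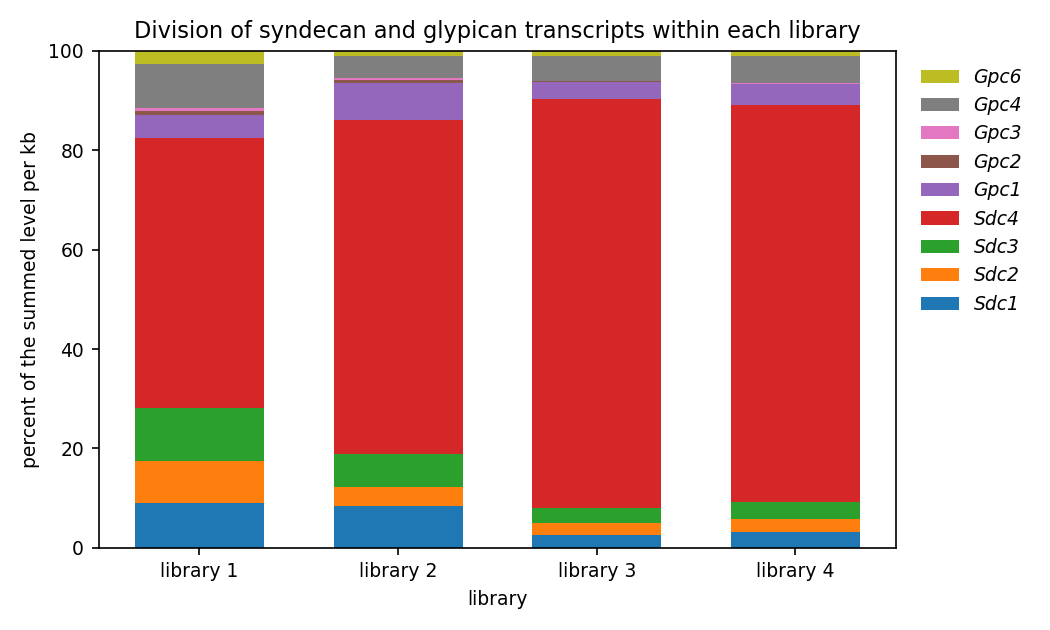
Percent of the summed level per kb of exon of the 10 genes taken by each gene in each library (Gpc5 has no reads). Sdc4 fills 54.3% in library 1 and 82.3% in library 3, and the glypicans from 9.76% to 17.6%.

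The within-library differences between paralogs were compared on the per-length scale. Sdc4 exceeded Sdc2, its closest relative, by 2.68, 4.17, 5.11 and 4.94 log2 units, a mean of 4.23 ± 1.11 or 18.7-fold. Gpc1 exceeded Gpc2 by 3.87 ± 1.03, a value that became 4.83 with the read-through exons in the Gpc2 length and 4.69 with the Gal3st4 reads taken off. Gpc4 exceeded Gpc6 by 2.05 ± 0.26, from 1.70 to 2.32 between libraries, and by 1.42 with the longest transcript as length. Sdc2 lay below Sdc3 by a small amount in every library (-0.48 ± 0.25). The summed syndecans exceeded the summed glypicans by 2.22, 2.64, 3.21 and 3.03 (mean 2.78 ± 0.44, 6.85-fold). Sdc4 made up 65.9%, 78.0%, 91.2% and 89.5% of the syndecan sum, so this difference largely restates the level of Sdc4. The families without Sdc4 were not compared. In these comparisons and in 2 comparisons of enzymes given below, 1 sign held in 4 of 4 libraries, with exact two-sided sign-flip permutation p = 0.125, and with 16 sign arrangements no p below 0.125 can be had. The adjusted p was 0.179 (Benjamini-Hochberg over 10 comparisons). An 11th planned comparison, Gpc3 minus Gpc5, is left out because Gpc5 had no reads and its sign was therefore fixed; with it the adjusted p was 0.172. Sdc1 minus Sdc3 (-0.06 ± 0.25, exact p = 0.75) and Gpc1 minus Gpc4 (-0.27 ± 0.69, exact p = 0.5) each had the opposite sign in 1 library, library 2.

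Spread between libraries was unequal among the members. Of the 8 detected members, Sdc4 and Gpc2 had an SD above 0.5, against 40.5% of all detected genes, and without library 3 the count was 5 of 8, against 34% of these genes. The SD of Sdc4 was larger than that of 89.4% of detected genes, and that of Sdc3 larger than that of 26.8%. Counting error would give SDs of 0.0053 for Sdc4 and 0.06 for Gpc2. Single libraries set several of these ranges: the highest over the lowest library was 3.41-fold for Sdc4 and 2.15-fold without library 1, 2.94-fold for Gpc2 and 1.60-fold without library 4, and 2.01-fold for Gpc1 and 1.22-fold without library 1. For Gpc6 it was 1.99-fold and 1.13-fold without library 2, and for Gpc4 2.07-fold and 1.36-fold without library 2.

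The scaling of the libraries bore on these patterns. As deposited, 51.8% of detected genes were higher in both of libraries 1 and 2 than in both of 3 and 4, among them Sdc1, Sdc3 and Gpc2, and 11.4% were lower, among them Sdc4 and Gpc4. With median-ratio size factors, which centre the typical gene, the shares were 27% and 28.7%, and of the members Gpc2 was higher in libraries 1 and 2, while Sdc4, Gpc1, Gpc4 and Gpc6 were lower. On that scale Sdc3 stood at 9.11, 9.04, 9.06 and 9.08, an SD of 0.029, so its order of libraries as deposited followed that of the typical gene. Sdc4 spread further, at 10.23, 11.12, 12.62 and 12.35 (SD 1.11), a 5.23-fold range. Then 5 of the 8 members, Sdc4, Gpc1, Gpc2, Gpc4 and Gpc6, had an SD above 0.5, against 30.6% of detected genes.

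**Figure D4:**
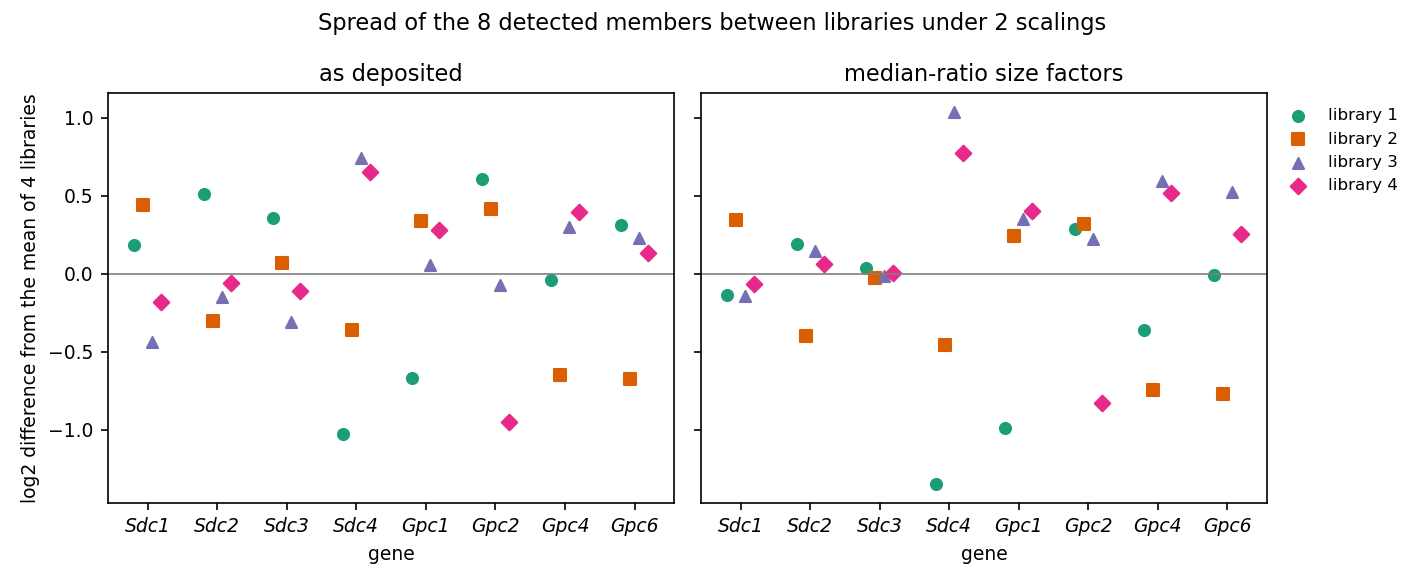
Difference of each library from the mean of the 4 libraries (log2) for the 8 detected members, as deposited and with median-ratio size factors. Sdc3 collapses to an SD of 0.029 on the right, while Sdc4 widens from an SD of 0.85 to 1.11.

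For the 2 detected members with the largest SD, the detected genes with the closest profile were found by the root mean square difference of centred log2 values over the 4 libraries, among 10822 genes. For Sdc4 these were Stard10 (difference 0.052), Rem1 (0.068) and Nkx6-2 (0.081), and for Gpc2 Adat1 (0.044), Cbll1 (0.053) and Sp100 (0.069). With 4 points per gene such matches describe these libraries only.

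Listed genes around heparan sulfate, from chain building to core protein partners, other proteoglycans and ligands, were largely present. Of 99 measured genes in 11 lists 77 were detected, against 47.4% of all genes, and the lists are described in the order of the pathway with values as mean log2 scaled reads per kb. All 7 genes of the linker that joins the chain to the core protein were detected, led by B3gat3, which adds the last linker sugar (6.34 ± 0.34), Xylt2, which adds the first (4.86 ± 0.37), and B4galt7 (3.93 ± 0.34). Chain polymerisation had 4 of 5, with the co-polymerases Ext1 (5.20 ± 0.58) and Ext2 (4.70 ± 0.28) beside Extl3 (4.73 ± 0.54), which starts the chain, and Extl1 undetected. All 4 genes of the sulfate donor supply were detected, led by the Golgi transporter gene Slc35b2 (6.05 ± 0.20), Papss1 (4.27 ± 0.49) and Papss2 (3.70 ± 0.54).

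Chain modification had 8 of 16 genes detected, or 50%, near the 47.4% of all genes. Its highest were Ndst1, which replaces acetyl by sulfate groups on the chain (4.30 ± 0.62), and the 6-O-sulfotransferase genes Hs6st2 (3.05 ± 0.54) and Hs6st1 (2.75 ± 0.58). Ndst1 exceeded Ndst2 by 2.47 ± 0.42, in 4 of 4 libraries. Not detected were Ndst3, Ndst4, Hs6st3, Hs3st1, Hs3st2, Hs3st4, Hs3st5 and Hs3st6, so that of the 3-O-sulfotransferase genes, which make the rarest modification, only Hs3st3a1 and Hs3st3b1 passed. Hs3st1, the enzyme gene linked to antithrombin-binding chains, had 32, 70, 20 and 0 reads.

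Outside the cell, the 6-O-endosulfatase genes Sulf1 (6.28 ± 0.64) and Sulf2 (6.06 ± 0.20), which remove sulfate from finished chains, lay between the core protein genes Gpc1 (6.35) and Sdc2 (6.01) per length. Sulf1 minus Sulf2 was 0.90, 0.11, -0.13 and 0.0016 (mean 0.22 ± 0.47, exact p = 0.625). With the longest transcript as length the mean was 0.88 ± 0.47, with 1 sign in 4 of 4 libraries (exact p = 0.125). The heparanase gene Hpse was low at 0.51 ± 0.40, and Hpse2 had no reads. All 8 genes of lysosomal breakdown were detected, with Naglu highest (5.14 ± 0.15) and Gusb at 4.83 ± 0.46.

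Of 11 listed genes whose products shed syndecans or cleave glypicans, all proteases except Notum, 8 were detected. Mmp2 (8.84 ± 0.31) and Mmp14 (8.07 ± 0.19) were highest, followed by the proprotein convertase gene Pcsk6 (4.84 ± 0.68). Mmp7 and Mmp9, both able to shed syndecan-1, and Notum, a secreted hydrolase first described as cutting glypican anchors, were not detected. Adam10 exceeded Adam17 by 0.87 ± 0.22, in 4 of 4 libraries, and by 0.28 with the longest transcript as length.

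The 9 listed partners of the syndecan tail were all detected, led by the actin-binding protein gene Cttn (7.77 ± 0.41), the PDZ adaptor gene Gipc1 (6.48 ± 0.21) and Ezr (5.84 ± 0.87), which links membrane proteins to actin. All 7 listed genes around the GPI anchor of glypicans were detected too, led by the transamidase subunit genes Pigs (6.32 ± 0.34), Pigt (5.24 ± 0.20) and Pigk (4.72 ± 0.30).

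Among the other proteoglycan genes that can carry heparan sulfate 7 of 10 were detected, led by Hspg2, encoding the basement membrane proteoglycan perlecan (7.18 ± 0.52), Cd44 (5.51 ± 0.32) and Col18a1 (4.49 ± 0.28), with Srgn, Spock1 and Spock3 undetected. Sdc4 had a higher mean level per kb than any of these 10. Ligands that bind the chains were detected in 12 of 18 cases, led by the chemokine gene Cxcl12 (7.47 ± 0.80), Bmp4 (6.36 ± 0.80) and Pdgfa (6.05 ± 0.34). Ptn, Fgf10, Hgf, Ihh, Shh and Wnt3a were not detected in 4 of 4 libraries.

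**Figure D5:**
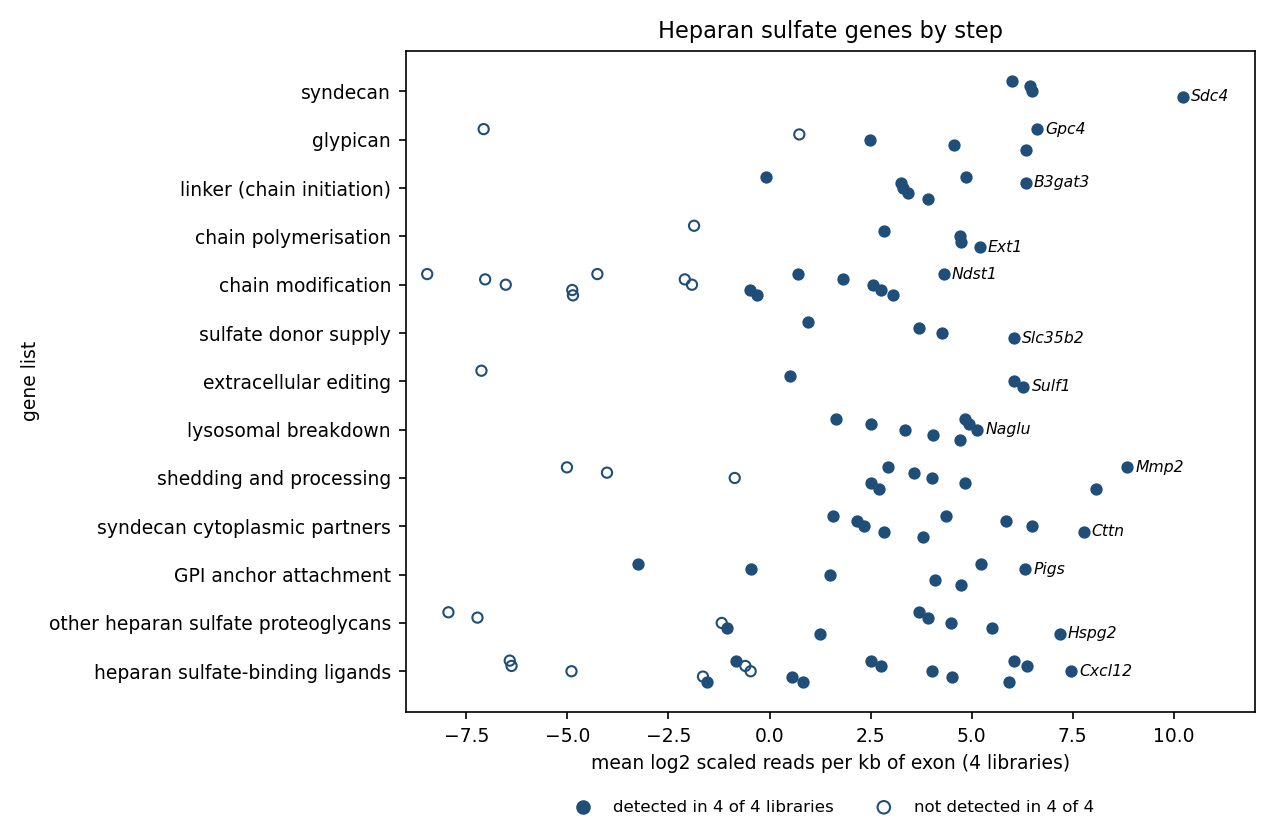
Mean level per kb of exon (log2 scaled reads, 4 libraries) of each gene, by list, with detected genes filled and the others open; the highest gene of each list is named. Sdc4 at 10.23 lies furthest right, and chain modification holds 8 filled and 8 open points.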

How the data were processed

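The authors deposited 1 table of log2 values per gene for 4 libraries, with gene positions on GRCm38. Trim Galore, cutadapt and TopHat are named without versions in the submitters' processing notes, and the counting step, with its annotation and strand setting, is not given in the sources used here. As the values show, a library constant multiplies whole reads before the log2, and genes without reads stand at 0.9 read. Reads were recovered by division, and 99.7% to 99.8% came out within 0.05 of a whole number. Exon lengths came from merged GENCODE M21 exons, matched for 87.1% of uniquely named genes. Differences used exact sign-flip permutation tests. Members and lists were chosen with earlier results of these data known. Named were all members, the 3 highest genes per list by level per kb, undetected list genes and the compared genes, except 1 gene that is not reported here. Pxylp1 and Mzb1 were matched through older symbols. The alternatives were leaving out each library, size factors, other thresholds, transcript lengths and floors. The statistics were tested on simulated data. Software was pandas 2.3.3, scipy 1.17.1, numpy 2.4.6 and matplotlib 3.10.9 in Python 3.11.15.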

Additional observations from a re-analysis of the deposited data

Results flagged for a closer look

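In 3 of 86 tested genes (members with reads and detected list genes), 1 library stood far from the other 3, with Dixon's ratio of its gap to the whole range above the 95% critical value, and chance flags about 1 in 20 such groups. Slc35b3, which encodes a transporter of the sulfate donor, was high in library 1 at 3.91 log2 scaled reads (ratio 0.840). Arsg, a lysosomal sulfatase gene, was high in library 1 at 4.34 (ratio 0.846). Prkca, the gene of the kinase bound by the syndecan-4 tail, was low in library 2 at 5.47 (ratio 0.940). No syndecan or glypican was among them.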

How the results depend on the processing

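No pairing of samples between groups was possible because all libraries belong to 1 group, and genes were compared within each library. The number of detected members was 8 to 9 under the alternatives and that of detected list genes 68 to 85. Among the 8 members detected with all 4 libraries, the count with an SD above 0.5 (2 of 8) was 2 to 5 when single libraries were left out. It was 5 with median-ratio size factors, and 0 with an SD above 1. Gpc3, which passed the detection threshold without library 3 and then had an SD of 1.29, is not in these counts. Of the 11 differences, 3 with means near 0 changed sign: Sdc1 minus Sdc3 was 0.0013 without library 1 (range over single libraries left out -0.18 to 0.0013), Sulf1 minus Sulf2 was -0.0062 without library 1 (-0.0062 to 0.34, but 0.88 with the longest transcript as length), and Gpc1 minus Gpc4 was 0.034 with the longest transcript as length; the cause was not tested. The other 8 kept their sign under every alternative run, which for Gpc3 minus Gpc5 is fixed by the lack of Gpc5 reads. The share of Sdc4 was 67.1% to 76.4% with single libraries left out, 68.8% with transcript lengths and 59.7% without division by length, where Sdc3 had 11.3%, Gpc1 8.24% and Gpc6 3.08%. Depth limits Gpc3 in library 3 and all genes under about 30 reads.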

Other observations

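Among the listed ligands, and named after their values were seen, Ptn (191, 246, 11 and 40 reads), Fgf10 (242, 240, 21 and 38) and Hgf (237, 468, 17 and 8) had most of their reads in libraries 1 and 2, where Gpc3 was high as well. Hbegf, a growth factor gene whose product binds heparan sulfate, was higher in libraries 3 and 4 (levels of 7.22, 7.19, 9.34 and 9.07), where Sdc4 was high. Of the tail partners, Ezr had 6.80, 6.91, 8.65 and 7.89 and Tiam1 7.40, 6.26, 4.72 and 4.32. Both were picked from 9 listed tail partners. Of the others, Sdcbp, Cask, Cttn and Pdcd6ip were higher in both of libraries 1 and 2, as Tiam1 was, and Sdcbp2, Gipc1 and Prkca had neither order. As deposited, 51.8% of detected genes were higher in both of libraries 1 and 2 than in both of 3 and 4. The share that was lower there was 11.4%. The named ligands were picked from 18 listed, of which Bmp4, Fgf1, Pdgfa and Vegfa showed neither split. Cxcl12, Fgf7, Mdk and Wnt5a were also higher in both of libraries 1 and 2 than in both of 3 and 4. Fgf2, Pdgfb, Bmp2 and Ihh (1, 0, 11 and 6 reads) were lower there, and Shh and Wnt3a had no reads. All these are values of 4 libraries of 1 group, with no test.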
